A study of Drosophila melanogaster with 3 samples.

Results

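The genes described here encode the subunits of the proteasome, and they were chosen by name as the protein-coding genes of the Ensembl BDGP6 annotation whose symbol starts with Prosalpha, Prosbeta, Rpn or Rpt followed by a digit. This gave 48 of 13945 protein-coding genes. Of these, 32 were canonical subunit genes and 16 were duplicates, recognised by a letter after the digit (Prosalpha6T, Rpt3R). The canonical genes comprised 7 for alpha subunits and 7 for beta subunits of the 20S core, 6 for ATPases of the 19S base, 4 for other base subunits and 8 for the lid. All 48 genes together were spread over 5 of the 6 chromosome arms used, with 8 on 2L, 13 on 2R, 7 on 3L, 14 on 3R and 6 on X, and 0 on chromosome 4.

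The proteasome degrades proteins that carry ubiquitin. Its barrel-shaped 20S core holds the protease sites on the beta rings and a gate on the alpha rings, and the 19S cap binds the ubiquitin chain, removes it and threads the substrate into the barrel with a ring of ATPases. Every cell needs the particle, its canonical genes are broadly expressed, and in flies and mammals their transcription rises together through a CNC-family factor (cnc in flies, NRF1 in mammals) when proteasome activity falls. Many of the duplicate genes of Drosophila are expressed in the male germ line.

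The assay was ChIP-seq of Jarid2, a partner of Polycomb repressive complex 2, the enzyme that methylates lysine 27 of histone H3. It was done on intact Drosophila melanogaster embryos of mixed sex, 0 to 24 h old. All 3 biological replicates were of 1 transgenic line in which GFP is fused to the C terminus of Jarid2, and chromatin was sheared by sonication to 200 to 800 bp and precipitated with an antibody against GFP. There was no second genotype, stage or treatment, no sample without GFP was analysed here, and the labels do not say whether untagged Jarid2 was also present. A whole-embryo library mixes tissues, so a site bound strongly in few cells and one bound weakly in many cannot be told apart.

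Each replicate had a permissive list of 30000 peaks, which holds weak regions by design, and 1 list of 5464 peaks that passed a limit on the irreproducible discovery rate (IDR), here called reproducible, stood for the 3 together. These 5464 were the top of the pooled list by the signal that the authors' caller gave each peak, and not every one was found in every replicate. Signal is on a scale of its own in each list, so peaks are compared below by rank within a list, with rank 1 the strongest. Reads were not part of the lists and the sequencing depth of each replicate is unknown. A gene is said to have a promoter peak where a summit lies within 1000 bp of any of its annotated starts, and positions are given from the nearest start, counted as 0, with negative values upstream. Coordinates are of the dm6 build.

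The stretches of DNA on which the results turn are shown first, read from the genome 5′ to 3′ on the strand of the gene, and limited to bases outside annotated UTRs. At Prosbeta7, the 1 subunit gene whose reproducible summit lay in its own coding sequence, the stretch runs from the start codon (chr3R:5357864-5358075, minus strand) and the capitals mark the summit base with 10 bases on either side. Read in frame, the bases meet a stop (tag) after the capitals, so the stretch is not coding throughout.
Prosbeta7: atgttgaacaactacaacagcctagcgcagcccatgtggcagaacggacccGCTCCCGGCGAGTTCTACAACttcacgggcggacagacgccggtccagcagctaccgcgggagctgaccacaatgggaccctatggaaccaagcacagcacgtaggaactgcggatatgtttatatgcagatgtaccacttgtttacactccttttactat
Upstream of Prosbeta2 (chr3L:14999701-14999950, plus strand) and Prosalpha6 (chr2L:10221217-10221350, plus strand), whose peaks were among the strongest of 1 replicate, the capitals mark the DNA replication-related element (DRE, TATCGATA), a promoter motif of broadly expressed fly genes. The Prosbeta2 stretch held the summits of that gene, but the Prosalpha6 stretch held none. The strong Prosalpha6 summit lay 521 bp upstream of the start, before the printed bases.
Prosbeta2: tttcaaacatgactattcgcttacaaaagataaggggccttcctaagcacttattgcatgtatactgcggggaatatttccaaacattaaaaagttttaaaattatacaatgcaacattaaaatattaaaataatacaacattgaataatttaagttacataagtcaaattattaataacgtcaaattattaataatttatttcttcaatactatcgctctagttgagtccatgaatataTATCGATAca
Prosalpha6: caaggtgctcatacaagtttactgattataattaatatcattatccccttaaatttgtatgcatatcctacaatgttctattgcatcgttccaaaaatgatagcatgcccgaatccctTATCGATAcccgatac
The stretch upstream of Rpn3 (chr2L:19051613-19051789, plus strand) is shown because it held the summit of a peak seen in replicate 3 and in no other list, and because it is a tandem repeat. The capitals mark the later copy of a 78-base unit, and the earlier copy begins just before the printed bases.
Rpn3: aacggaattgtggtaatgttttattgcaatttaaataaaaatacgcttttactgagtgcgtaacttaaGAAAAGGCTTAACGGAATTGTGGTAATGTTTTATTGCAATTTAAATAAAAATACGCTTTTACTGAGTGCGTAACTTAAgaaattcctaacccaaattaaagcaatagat

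Few of the subunit genes had a Jarid2-GFP peak at their promoter. In the reproducible list 3 of the 48 did, which is 6.25% (exact 95% binomial interval 1.31% to 17.2%, for counting error over genes), against 25.5% of all protein-coding genes. The 3 genes were Rpn9, which encodes a lid subunit, Rpn13, which encodes a ubiquitin receptor of the base, and Prosbeta7, which encodes a non-catalytic subunit of the beta ring. They made up 9.38% of the 32 canonical genes (1.98% to 25.0%), and none of the 16 duplicates had such a peak, which leaves room for a share of up to 20.6%. The share of the members was thus below the background. Because the genes are not replicates of a condition and there was 1 group of samples, no test was made.

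The replicates gave the same picture separately, with 1 partial exception. Among the 5464 strongest peaks of each replicate, replicate 1 had promoter peaks at 4 of the 48 genes (8.33%), against 27.2% of all genes. Replicate 2 had them at 3 (6.25%), against 24.5%. Replicate 3 had them at 7 (14.6%), against 26.5%, and so lay above the other replicates but still below its own background. The mean share was 9.72% ± 4.34 (SD, n = 3) for the subunit genes and 26.0% ± 1.37 (SD, n = 3) for all genes, and the groups of 3 values did not overlap. The canonical genes alone had 12.5%, 9.38% and 21.9%, also below the background of each replicate. The union over replicates was 9 genes (18.8%), against 32.3% of all genes, and 2 genes (4.17%), Rpn9 and Rpn13, were among the strongest peaks of all 3 replicates, against 20.1%.

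**Figure D1:**
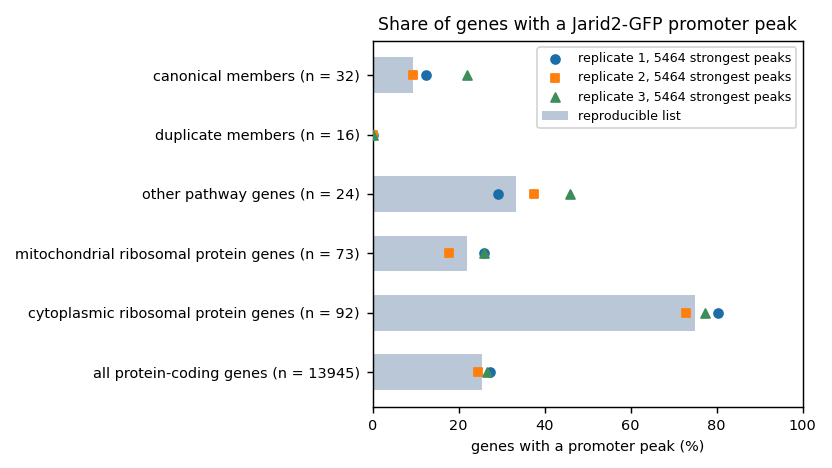
Share of genes (x axis, percent) with a promoter peak in the reproducible list (bars) and among the 5464 strongest peaks of each replicate (points), for the proteasome genes and the gene groups they are set beside. Canonical members sit between 9.38% and 21.9%, below the 24.5% to 27.2% of all protein-coding genes, and duplicates sit at 0.

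With weak peaks included, the share of the 48 genes stayed below that of all genes, and the canonical genes came closer to it. Anywhere in the 30000 peaks of replicate 1, 14 subunit genes (29.2%) had a promoter peak, against 52.3% of all genes. Replicate 2 had 10 (20.8%), against 46.0%, and replicate 3 had 17 (35.4%), against 53.0%. Over the replicates this was 28.5% ± 7.32 (SD, n = 3) for the subunit genes and 50.4% ± 3.9 for all genes. The permissive list of the pooled replicates had promoter peaks at 15 (31.2%), against 46.2%. For 28 of the 48 genes (58.3%) no replicate had a promoter peak of any strength, against 35.2% of all genes, and 8 (16.7%) had one in every replicate, against 36.8%. For the 32 canonical genes alone the shares were 37.5%, 31.2% and 46.9% in replicates 1, 2 and 3 and 40.6% in the pooled list, and 15 of them (46.9%) had no promoter peak in any replicate. The 15 members with a pooled peak also ranked lower, with a median best rank of 9384 against 4586 over all genes with one.

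The subunit genes were as a rule not close to reproducible summits. The distances here are to the same list and include the genes with a promoter peak, so they are not independent of the counts above. The median distance from a gene's starts to the nearest reproducible summit was 12728 bp for the 48 genes, against 6940 bp for all protein-coding genes, and 31 genes (64.6%) lay more than 10000 bp away, against 41.1%. The canonical genes had a median of 9478.5 bp and the duplicates of 22218.5 bp. Prosbeta5R1, a duplicate of the chymotrypsin-like subunit gene, lay farthest, at 81693 bp, and Prosbeta6, a beta subunit gene, was the farthest of the canonical ones, at 37414 bp. Subunit genes are short, with a median length of 1381.5 bp against 2166 bp for all genes.

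The number of annotated starts, which sets how much sequence is searched for a gene, moved with the share of genes with a peak. Of all genes with 1 start 18.5% had a reproducible promoter peak, of those with 2 starts 38.0% and of those with 3 or more 60.3%. Among the subunit genes, 36 had 1 start and 0 of these had a peak, 11 had 2 starts and 2 had a peak (Rpn9 and Prosbeta7), and the 1 gene with 3 starts, Rpn13, had a peak. Weighted to the start numbers of the 48 genes, the background was 23.8%, close to the unweighted 25.5%.

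Rpn9, whose product is one of the scaffold subunits of the lid, had the strongest peak of the family. Its reproducible peak (chromosome 3R, signal 751) ranked 763 of 5464, and in the replicates it ranked 687, 799 and 1060. All 3 replicates thus had it among their strongest peaks. The summit lay 120 bp downstream of the Rpn9 start, and in the replicates the strongest summit lay 71, 152 and 120 bp downstream. That position is in the 5′ UTR of Rpn9. A second summit on the other side of the Rpn9 start, 138 bp upstream in replicate 1 and 52 bp upstream in replicate 2, ranked 4214 and 7287. Another weak one lay in the coding sequence, 921, 899 and 799 bp downstream, at ranks 11022, 17091 and 15140. No other subunit gene had more than 2 summits within reach in any replicate.

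Rpn13, which takes up ubiquitin chains at the cap, shared its peak with a neighbour. The reproducible peak (chromosome 2R, 13960556 to 13961005, signal 320) ranked 2483, and in the replicates it ranked 3099, 1764 and 4072. Its summit, at 13960781, was 377 bp upstream of the Rpn13 start and 106 bp downstream of a start of CtsL1, a cathepsin L protease gene, in whose 5′ UTR it lies. The summits of the replicates fell 380, 388 and 378 bp upstream, so they were close to each other and to CtsL1. Replicate 3 had a second, weaker summit 607 bp upstream, at rank 8400.

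Prosbeta7 was the 1 gene of the family with a reproducible summit that no other gene had within 1000 bp of a start. The peak (chromosome 3R, 5357789 to 5358238, signal 260) ranked 3238, and in the replicates it ranked 6361, 2843 and 3701. Replicate 1 thus placed it outside its 5464 strongest peaks and replicates 2 and 3 inside. The summit, at 5358014, lay 161 bp downstream of the nearer of the 2 Prosbeta7 starts, in the first coding bases shown above, and the replicates' summits lay 103, 115 and 167 bp downstream. Of the members' 3 reproducible peaks, the 2 at Rpn9 and Rpn13 were held within 200 bp by the strongest peaks of all 3 replicates, beside 73.6% of the 3786 reproducible peaks at coding starts. The same replicates made the reproducible list, so this support is not independent of it.

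**Figure D2:**
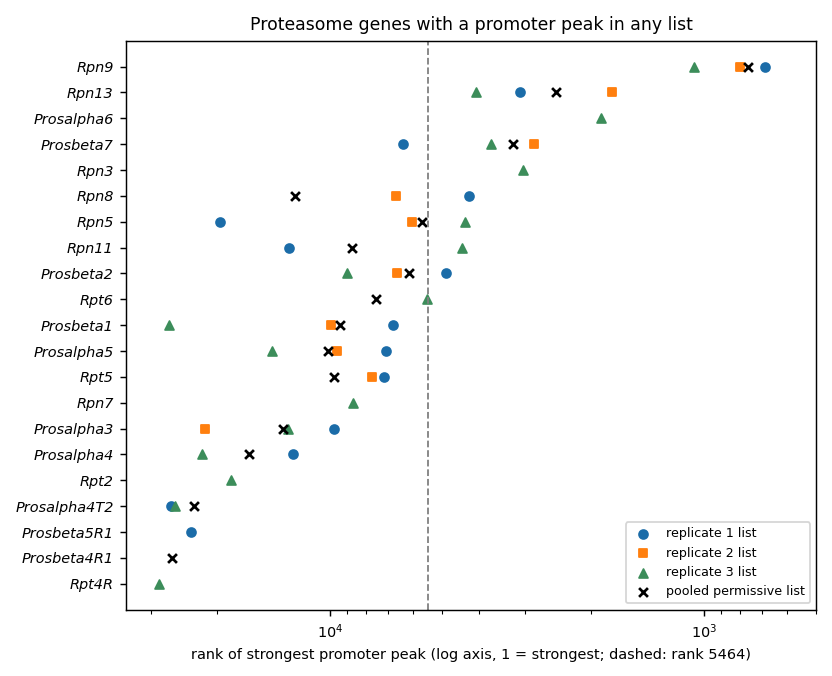
Rank of the strongest promoter peak (x axis, logarithmic, strongest to the right) of each proteasome gene with a peak in any list, for the 3 replicates and the pooled permissive list, with a dashed line at rank 5464. Rpn9 and Rpn13 lie to the right of the line in every list, Prosbeta7 in all but replicate 1, and Prosalpha6 and Rpn3 have a point for replicate 3 and for no other list.

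The genes of the alpha ring, whose N termini form the gate of the core, had no reproducible promoter peak. Of the 7, none was among the strongest peaks of replicates 1 and 2, and Prosalpha6 was in replicate 3. Its peak there ranked 1882 (signal 118, −log10 q 3.81), and neither replicate 1, replicate 2 nor the pooled list had any summit within 1000 bp. The summit lay 521 bp upstream of the start, in the 5′ UTR of the divergent gene Npc1a, a sterol transport gene, 122 bp downstream of a start of that gene. A weak summit of replicate 3 at rank 26568 was nearer to Prosalpha6, 39 bp downstream. Prosalpha5 and Prosalpha3 had weak peaks near the start in every replicate, at ranks 7080, 9542 and 14238 for Prosalpha5 and 9721, 21540 and 12923 for Prosalpha3. Prosalpha4 had one in replicates 1 and 3, at ranks 12544 and 21970, at the start of its neighbour kat80. Prosalpha1, Prosalpha2 and Prosalpha7 had none in any list.

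Among the 7 beta subunit genes, the 3 for the catalytic subunits gave different ranks. Prosbeta2, for the subunit that cuts after basic residues, ranked 4881 in replicate 1, 6599 in replicate 2 and 8999 in replicate 3, and 6158 in the pooled list, just outside the reproducible 5464. Its summits lay 165, 13 and 85 bp upstream of the start, in the stretch shown above, which it shares with the divergent mRpL39, a mitochondrial ribosomal protein gene. Prosbeta1, for the subunit that cuts after acidic residues, had weak peaks in all replicates, at ranks 6770, 9947 and 26917 and between 49 bp downstream and 59 bp upstream of its start. Prosbeta5, for the subunit that cuts after hydrophobic residues, had none, and the same held for Prosbeta3, Prosbeta4 and Prosbeta6. The beta group had 1 gene among the strongest peaks of each replicate, Prosbeta2 in replicate 1 and Prosbeta7 in replicates 2 and 3.

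The 6 ATPase genes, Rpt1 to Rpt6, whose products form the unfolding ring, had no promoter peak in the reproducible list or among the 5464 strongest of any replicate. Rpt6 came nearest, with a peak of rank 5504 in replicate 3, 120 bp downstream of its start, none in replicates 1 and 2, and rank 7514 in the pooled list. Rpt5 ranked 7158 and 7700 in replicates 1 and 2 and had no peak in replicate 3. Its replicate 1 summit, 21 bp upstream, lay in the short interval shared with RanBP3. Its replicate 2 summit, 81 bp upstream, lay in the 5′ UTR of RanBP3, 39 bp downstream of the start of that gene. Rpt2 had a peak of rank 18334 in replicate 3. Rpt1, Rpt3 and Rpt4 had none. With 6 genes, 0 still allows a share of up to 45.9%.

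Of the base subunits that are not ATPases, Rpn13 was the exception. Rpn1 and Rpn2, the largest scaffolds of the cap, and Rpn10, the other classical ubiquitin receptor, had no promoter peak in any list. Rpn2 was 4645 bp and Rpn10 27136 bp from the nearest reproducible summit.

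The lid carries the deubiquitinating enzyme. Of its 8 genes, 6 (75.0%) had a promoter peak of any rank in at least 1 replicate, against 64.8% of all genes. This was the largest share of the 5 role groups, each of which has 8 genes or fewer. The number varied between replicates. Among the strongest peaks of replicates 1, 2 and 3 were 2, 1 and 4 of the 8, against 27.2%, 24.5% and 26.5% of all genes. The union over replicates was 5 of the 8 (62.5%), above the 32.3% of all genes. In the reproducible list it was 1 of the 8 (12.5%), below the 25.5% of all genes. With peaks of any rank the counts were 4, 3 and 5 of the 8, against 52.3%, 46.0% and 53.0% of all genes. Rpn11, which encodes the deubiquitinase itself, ranked 12836 in replicate 1 and 4445 in replicate 3 and had no peak in replicate 2. Its summits lay 20 bp downstream and 98 bp upstream of the start. Rpn8, the partner of Rpn11 in the enzyme, ranked 4251 in replicate 1 and 6636 in replicate 2 and had none in replicate 3. These summits, 391 and 399 bp upstream of an Rpn8 start, were nearer to a start of Slik, a protein kinase gene, in whose 5′ UTR they lie. Rpn5, a scaffold subunit, ranked 19615, 6035 and 4339, and 5667 in the pooled list, with summits 261, 201 and 173 bp upstream that were nearer to the divergent Hat1, a histone acetyltransferase gene. Rpn7 had a peak of rank 8687 in replicate 3, 691 bp downstream in its coding sequence. Rpn6 and Rpn12 had none in any list.

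Rpn3, also a scaffold of the lid, had, like Prosalpha6, a peak among the 5464 strongest of replicate 3 and none in any other list. It ranked 3040 there (signal 82.9, −log10 q 3.81), 51 bp upstream of the start, inside the later repeat unit shown above. The longest direct repeat of its promoter window, from 250 bases before to 50 after the start, was 82 bases long, against 7 to 16 bases in the other 31 canonical promoters. Among the 5464 strongest peaks of replicate 3, 53 of the 3741 at coding starts (1.42%) had no summit within 1000 bp in either other permissive list, and 52 of these had none in the pooled list. Replicate 1 had 30 of 3912 (0.767%) and replicate 2 had 4 of 3753 (0.107%). Without Rpn3 and Prosalpha6, replicate 3 had 5 subunit genes among its strongest peaks. The part of the repeat in the peaks of replicate 3 was not tested.

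The 16 duplicate genes were nearly empty. None was among the strongest peaks of any replicate, whereas 32.3% of all genes were in at least 1. For 13 (81.2%) no replicate had a promoter peak of any rank, against 35.2% of all genes. Of the 16 duplicates, 14 (87.5%) had 1 annotated start, against 73.5% of all genes. Prosalpha4T2 ranked 26628 in replicate 1 and 25983 in replicate 3, 505 and 613 bp upstream, and Prosbeta5R1 ranked 23505 in replicate 1. Rpt4R ranked 28605 in replicate 3, and Prosbeta4R1 had a peak of rank 26495 in the pooled list. All 4 were thus in the weakest part of lists of 30000. Their summits lay 215 to 818 bp upstream of the start, whereas 10 of the 13 canonical genes with a pooled peak (76.9%) had their strongest summit within 200 bp, against 62.0% of all genes.

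**Figure D3:**
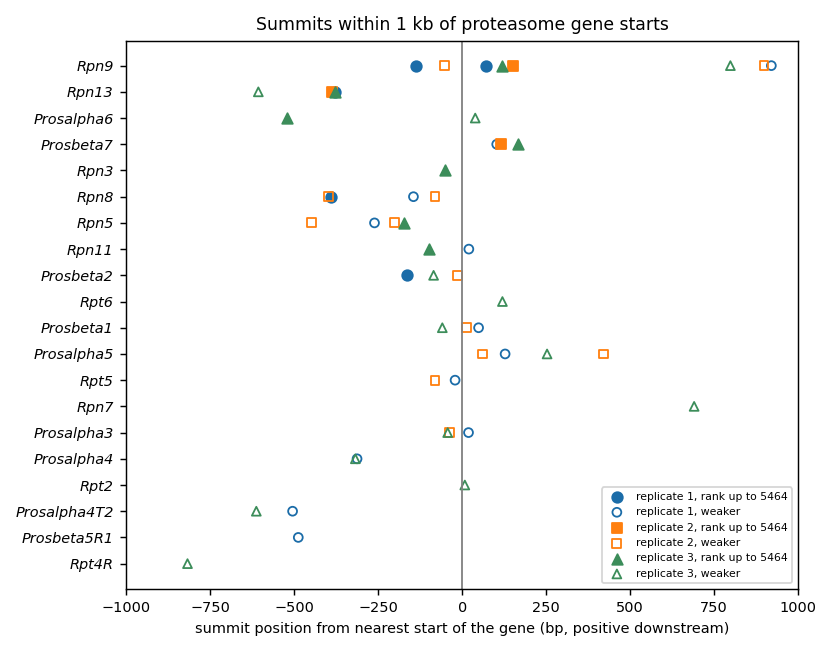
Position of every summit within 1000 bp of a start (x axis, bp from the nearest start of the gene, positive downstream) for the proteasome genes with a peak in a replicate list; filled symbols are among the 5464 strongest of that replicate and open ones are weaker. Filled symbols at Rpn9, Rpn13 and Prosbeta7 line up between replicates, and summits of Prosalpha4T2, Prosbeta5R1 and Rpt4R lie 488 bp or more upstream.

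Neighbours were part of many of these peaks. Canonical subunit genes are tightly packed: 21 of 32 (65.6%) had the start of another protein-coding gene within 1000 bp, against 42.2% of all genes and 4 of 16 duplicates (25.0%). The median distance to that start was 379.5 bp for the canonical genes, 2470.5 bp for the duplicates and 1416 bp for all genes. Distances were measured from the outermost 5′ end of a gene. A neighbour close to another of its starts, such as Slik at Rpn8, was therefore not counted. The strongest summit of a subunit gene was nearer to the start of another gene in 2 of 3 cases in the reproducible list, 6 of 14 in replicate 1, 5 of 10 in replicate 2 and 5 of 17 in replicate 3. These counts were not made for all genes with a peak, so they cannot be called particular to the subunit genes. With each reproducible summit given to the nearest coding start alone, 1 subunit gene, Prosbeta7, kept a peak (2.08%), against 20.8% of all genes. Which of the genes at a shared site a peak belongs to was not tested.

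A sequence feature that the choice by name did not use, the DRE, was found in a minority of the canonical promoters, at a higher share than in all promoters. It occurred in 12 of 32 (37.5%), 0 of 16 duplicates, 9.36% of all coding promoters and 3.54% of 300 bp windows at reproducible summits near coding starts, searched on both strands in windows from 250 bases before to 50 after the start. It lay at different distances from the start, from 217 bases upstream in Rpn13 to 26 downstream in Rpn9. It was found in genes of every role group of the canonical set, with Prosalpha3, Prosalpha5 and Prosalpha6 of the alpha ring, Prosbeta1, Prosbeta2 and Prosbeta6 of the beta ring, Rpt5 of the ATPases, Rpn13 of the base and Rpn3, Rpn7, Rpn9 and Rpn12 of the lid.

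Matches with 10 bases on either side are shown for 5 of these genes, with the DRE in capitals, so that the fixed core and the differing flanks can be compared. The first 2 lie on chromosome 3L (chr3L:16610445-16610472, minus strand, and chr3L:16582802-16582829, plus strand), the third on 2L (chr2L:19051583-19051610, plus strand) and the others on 3R (chr3R:22462034-22462061, minus strand, and chr3R:23752820-23752847, plus strand). The DRE of Rpn7 lies 3 bases downstream of the start, and the others lie upstream.
Prosbeta6: tatgtataccTATCGATAacgtttaagc
Rpn12: tgttaaaataTATCGATAttaaagcaca
Rpn3: gttatcggagTATCGATAtcgaaaaggc
Rpn7: cggtataattTATCGATAattttggggt
Rpt5: tcgctgtcacTATCGATAagcgccggcg
The CNC-Maf site core (TGACNNNGC, the letters shared by sites of the factors that cnc belongs to) was in 5 of 32 canonical promoters (15.6%), those of Prosalpha2, Prosbeta3, Rpn1, Rpn7 and Rpt6, in 1 of 16 duplicates, and in 8.63% of all promoters. A match of each of 3 genes is printed with the core in capitals on either strand (chr3R:9006435-9006463 and chr3R:22462005-22462028, minus strand, and chrX:21316068-21316096, plus strand).
Prosbeta3: cccaactgatTGACGCGGCctggtcacac
Rpn7: tggtagtacaTGACTCTGCgattt
Rpt6: aaaagcaaatGCAGAGTCAtacaataaag

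Over the genome, having a DRE at the outermost 5′ end of a gene did not go with having a peak at any of its starts. Of all genes with a DRE in the promoter 25.6% had a reproducible promoter peak, and of those without one 25.5%. Among the canonical subunit genes the figures were 2 of 12 (16.7%) and 1 of 20 (5.0%). In a gene with several starts, the DRE window and the peak can lie at different promoters. Of the 3 summit windows of subunit genes, that of Rpn9 held a DRE, which lies outside the central 100 bp, and none held the CNC-Maf site core. Each match is a description of the letters in a window and not a bound site.

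The other motifs were both rarer and more common in the subunit promoters than in the windows around reproducible summits. GAGAG, the letters bound by GAGA factor, occurred in 3 of 32 canonical promoters (9.38%), against 29.7% of all promoters and 49.3% of the summit windows. It occurred in 6 of 16 duplicates (37.5%). The core of Motif 1 (GGTCACAC), like the DRE a motif of broadly expressed genes, occurred in 5 canonical promoters (15.6%), against 7.7% of all promoters and 5.1% of the summit windows. The core letters of the Pho site (GCCAT) were in 10 canonical promoters (31.2%), 9 duplicates (56.2%), 41.2% of all promoters and 36.7% of the summit windows. TATAAA was in 13 canonical promoters (40.6%), 5 duplicates (31.2%), 45.8% of all promoters and 28.8% of the summit windows, and the E-box CACGTG in 0 members, 4.2% and 4.04%. Some letters are shared, since GGTCACAC overlaps a CNC-Maf core in Prosbeta3 and Rpn1.

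**Figure D4:**
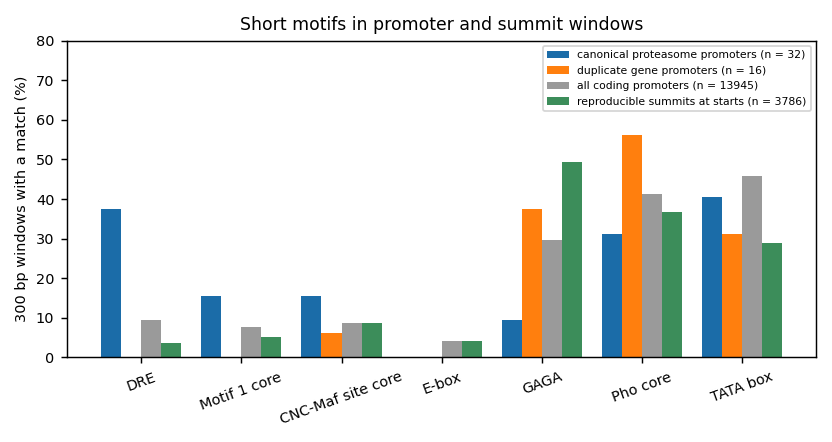
Share of 300 bp windows (y axis, percent) with a match to each of 7 short motifs on either strand, for canonical promoters, duplicate promoters, all coding promoters and windows centred on reproducible summits near coding starts. The DRE bar of the canonical genes, at 37.5%, is above the others, and their GAGA bar, at 9.38%, is below the others.

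Base composition also differed between these windows, but canonical and duplicate promoters were alike in it. The median GC content was 33.5% in canonical promoters, 32.7% in duplicate promoters, 38.0% in all coding promoters and 45.3% in the summit windows. Of all genes with a promoter GC of up to 33.5%, 16.7% had a reproducible promoter peak, against 28.6% of the rest. Here too the promoter window was at the outermost 5′ end, whereas a peak could be at any start. The windows at the summits of Rpn9 and Prosbeta7 had 49.7% and 50.7% GC, and that of Rpn13 38.0%. The part of base composition in the low share of the subunit genes was not tested.

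The gene groups that resemble the proteasome in being needed by all cells were set beside it. The 92 genes of cytoplasmic ribosomal proteins had promoter peaks at 76.8% ± 3.82 (SD, n = 3 replicates) among the 5464 strongest, and the 73 genes of mitochondrial ribosomal proteins at 23.3% ± 4.75, beside 14.6% ± 6.51 for the 32 canonical proteasome genes. The canonical values, 12.5%, 9.38% and 21.9% in replicates 1, 2 and 3, were all below those of the cytoplasmic group. Within each replicate they were also below those of the mitochondrial group, 26.0%, 17.8% and 26.0%. Between replicates the ranges of the canonical and mitochondrial groups overlapped. The DRE was in 30.4% of the cytoplasmic ribosomal protein promoters, against 37.5% of the canonical proteasome promoters. The median distance to the nearest reproducible summit was 47 bp for these genes and 6929 bp for the mitochondrial group, against 9478.5 bp for the canonical proteasome genes.

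A larger share of the genes that act around the proteasome than of the genes of the particle had peaks, a difference that was not tested. Of 24 such genes measured, for regulators, chaperones, ubiquitin and enzymes that feed it, 8 had a reproducible promoter peak (33.3%, exact 95% binomial interval 15.6% to 55.3%), against 25.5% of all genes. That interval includes the share of all genes. Among the strongest peaks of each replicate the share was 37.5% ± 8.33 (SD, n = 3), against 26.0% ± 1.37 of all genes. The 24 include Sem1, itself a lid subunit, and RpL40 and RpS27A, which are also counted among the 92 cytoplasmic ribosomal protein genes. Fewer of the 24 genes had only 1 annotated start, 54.2% against 73.5% of all genes, and no background weighted by starts was made for them.

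The strongest was cnc, the transcription factor of the proteasome feedback, at rank 64, with ranks 51, 104 and 42 in the replicates and summits 66, 58 and 69 bp downstream of a start. It has 10 annotated starts. Keap1, which encodes the partner that holds the CNC protein in check, ranked 1027, with 1176, 916 and 874 in the replicates, 869, 938 and 869 bp upstream of a start and in an intron of kuk. A weaker reproducible peak of rank 1961 lay 18 bp downstream of a Keap1 start. Uba1, for the enzyme that activates ubiquitin, ranked 1014, with 696, 1308 and 1212, 711, 671 and 710 bp downstream of its start. In these 3 genes every replicate had the peak among its 5464 strongest.

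The polyubiquitin gene Ubi-p5E ranked 1171, with 860, 1564 and 1376 in the replicates, close to its start. REG, for the cap that opens the core without ubiquitin, ranked 1242, with 1158, 1020 and 1977, but the summit, 788 bp upstream, was nearer to the start of sno. Pomp, for the chaperone that closes the assembly of the core, ranked 1672, with 1783, 2018 and 1566, 234 bp upstream. Ubi-p63E and RpL40, 2 further ubiquitin genes, had reproducible peaks at ranks 1954 and 5152. The maf-S gene, for the small Maf partner of cnc, had none in any list, and neither did p47, Rad23, RpS27A, sip3 and Ubqn. Sem1, the one lid subunit whose symbol the choice by name leaves out, had a peak of rank 8827 in replicate 1 and none in the others.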

How the data were processed

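Peaks had been made by the authors for 3 biological replicates of embryos with Jarid2-GFP. Per the deposited notes, the permissive lists were called from replicate or pooled alignments with a control alignment as comparison, and these lists were then combined into the IDR list. The aligner, the caller and their versions are not given in the sources used here. The deposited values are a signal per peak, on a scale of its own per list, and a −log10 q-value. Signal was used for ranks within a list and the −log10 q-value only for the description of single peaks. The 5 dm6 lists were used here, on 6 chromosome arms, and the dm3 lists were not used here. The neighbourhood of the Rpn9 peak is not reported here.

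Genes, starts and UTRs were those of Ensembl release 115 (BDGP6.54), without transposable elements, and sequences those of the Release 6 genome. A summit within 1000 bp of a start counted as a promoter peak, for every gene in reach, and summits within 200 bp as the same site. Counts and shares were made with Python 3.11.15, pandas 2.3.3, numpy 2.4.6 and scipy 1.17.1, figures with matplotlib 3.10.9, and the counting was tested on simulated data. The replicate values are mean ± SD over samples of 1 group, so no condition was compared and no p-value was computed. Depth was unknown, and intervals cover counting error only.

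The members and the lists of other genes were chosen with earlier results of these data known. Of the 25 symbols listed for other genes of the pathway, 24 matched a gene and the other is an older name of Ufd1. Named were all members with a reproducible peak or a peak among the strongest of a replicate, all duplicates with any peak, the other members by count and name, and the 6 other pathway genes with the strongest peaks. Ubi-p63E, RpL40, maf-S, Sem1 and the genes listed with maf-S were named after their values were seen. The motif and neighbour counts by gene group, the peaks of 1 replicate alone, the direct repeat and the split by GC content were added then too. The alternatives were other distances, list sizes and matching rules, each replicate alone and each replicate left out.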

Additional observations from a re-analysis of the deposited data

How the results depend on the processing

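The count of 3 members with a reproducible promoter peak was 3 with 500 bp and 4 with 2000 bp in place of 1000 bp (8.33%, against 29.5% of all genes, adding Rpn11). It was 2 in the 2732 strongest peaks of the list, and 3 with the outermost 5′ end, with overlap of the peak interval, with peaks near a stronger summit left out and without duplicates. It fell to 1 with the nearest coding start. Replicate 3 alone gave 7, and with doubled lists the replicates gave 9, 9 and 10 (18.8%, 18.8% and 20.8%, against 37.2%, 33.1% and 36.8%). Among settings chosen once the data had been seen, the pooled permissive list gave 15, its 10928 strongest peaks 10 (20.8%, against 34.2%), summits anywhere in the gene 2, and members with 1 start 0 of 36. With peaks matched in both other replicates as each was left out, the count ranged from 2 to 3, against 20.6% to 21.4% of all genes. In every one of these settings the members' share was below that of all genes. The members' peaks held by all 3 replicates numbered 2, and 3 with doubled or whole lists. The 1 DRE at a member's summit became 0 in a 100 bp window, which the smaller window makes possible by its size, and the CNC-Maf core stayed at 0. No paired analysis was possible because the study had 1 group. Read depth per replicate was unknown and limits what the absence of a peak shows.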

Other observations

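Uch-L5, for a deubiquitinase of the 19S cap, had a promoter peak in replicate 3 and in no other list, as Prosalpha6 and Rpn3 did. It ranked 1483 there, 64 bp upstream of the Uch-L5 start, but the nearest start, 9 bp away, was that of Jarid2 itself, the gene tagged in these flies. Npl4 and Ufd1, for the adaptor pair that works with the TER94 unfoldase, both had peaks in every replicate, at ranks 20366, 6706 and 8591 for Npl4 and 9099, 14260 and 5266 for Ufd1, of which the last is among the 5464 strongest. TER94 itself ranked 5684, 3442 and 11026, so 1 of its 3 values was among the 5464 strongest. Pngl, whose mammalian counterpart removes sugar chains from substrates, ranked 7935, 11489 and 5104, and had no promoter peak in the pooled list. These genes were chosen after their values were seen.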
